A study of Mus musculus with 2 samples.

Results

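The adrenomedullin signalling genes described here are 5 of the 27998 gene rows of the deposited matrices, namely Adm, Calcrl, Ramp1, Ramp2 and Ramp3, and each symbol stood on 1 row. They were chosen by name, from the low ratio of Ramp2 between NaIO3 and PBS in cells of the retinal pigment epithelium (RPE), which was known beforehand. That contrast is therefore given as a description for all 5 genes. Cells taken from the RPE and the choroid below it, in C57BL/6J mice, were sequenced in droplets (10x Genomics), 1 library for each of the groups. The NaIO3 group had received sodium iodate, a toxicant of the RPE, as 1 dose level of 20 mg/kg in PBS by vein, and the PBS group an equal volume of that buffer, with treatment given as 7 days. Each library pooled 6 animals, whose eyes were digested with dispase, the neural retina was taken away, and brown hexagonal cells were picked under a microscope. The labels give no age for the mice.

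Adrenomedullin is a secreted peptide, made from the product of Adm, that widens vessels and keeps the endothelial barrier tight. It binds a receptor built from the calcitonin receptor-like receptor, encoded by Calcrl, and a single-pass accessory protein of the RAMP family. RAMP2 and RAMP3 each turn that receptor into an adrenomedullin receptor, whereas RAMP1 turns it into the receptor for calcitonin gene-related peptide. The complex signals mainly through the stimulatory G protein and cyclic AMP, and the RAMPs also pair with other receptors of the same class.

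The NaIO3 library gave 3816 cells and the PBS library 4225 cells after filtering. Cells were named by cluster from marker genes, and "-like" marks that each name comes from markers. The RPE-like cells numbered 2265 in NaIO3 and 3406 in PBS, with 27616838 unique molecular identifiers (UMIs, counted molecules) in NaIO3 and 42015880 in PBS. All 9 RPE markers were detected in both, and their summed level was 21757 CPM (UMIs scaled to a fixed class total) in NaIO3 and 24917 CPM in PBS. Nearly all RPE-like cells lay in clusters made up wholly or almost wholly of a single library, clusters 1, 3, 9, 16 and 24 for NaIO3 and clusters 0, 2 and 6 for PBS; cluster 6 held 2 NaIO3 cells and cluster 9 held 1 PBS cell. The median share of mitochondrial UMIs in RPE-like cells was 11.8% in NaIO3 and 8.34% in PBS. Surface epithelium-like cells, led by keratins of the cornea and conjunctiva, numbered 689 in NaIO3 and 66 in PBS. In NaIO3 there were 477 macrophage-like, 47 fibroblast-like, 13 endothelial-like and 2 mural-like cells (pericytes and smooth muscle), and in PBS 105, 294, 41 and 68 of these. RNA of other classes was found in most NaIO3 RPE-like cells, with at least 4 surface epithelium markers in 2221 of 2265 NaIO3 and 157 of 3406 PBS RPE-like cells. Between the libraries 19 kept barcode sequences were shared. With 1 library per group there was no replicate check and no test, so every 95% interval below covers counting error only, exact Poisson for a level, exact conditional binomial for a ratio and Clopper-Pearson for a share.

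The promoters of the ligand gene and of one receptor partner are shown because Adm and Ramp3 lay on opposite sides of 1 in the ratio of NaIO3 to PBS while holding the same short motif. Capitals mark GCGTG on either strand, which reads CACGC on the other; GCGTG and ACGTG, the core letters bound by hypoxia-inducible factors, were searched on both strands.
Adm promoter, chr7:110627407-110627706, + strand: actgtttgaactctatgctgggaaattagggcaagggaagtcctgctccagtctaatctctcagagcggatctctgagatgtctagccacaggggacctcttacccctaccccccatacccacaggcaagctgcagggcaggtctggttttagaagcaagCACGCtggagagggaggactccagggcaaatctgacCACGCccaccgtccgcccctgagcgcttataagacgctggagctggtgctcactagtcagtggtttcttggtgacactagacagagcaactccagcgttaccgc
Ramp3 promoter, chr11:6658283-6658582, + strand: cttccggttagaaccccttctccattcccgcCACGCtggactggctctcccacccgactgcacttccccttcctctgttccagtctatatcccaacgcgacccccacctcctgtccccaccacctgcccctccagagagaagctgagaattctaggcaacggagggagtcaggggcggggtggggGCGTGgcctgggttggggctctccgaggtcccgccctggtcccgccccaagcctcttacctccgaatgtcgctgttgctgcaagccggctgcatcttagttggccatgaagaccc
Both are RefSeq sequences on GRCm38.p6 and run from 250 bases before to 50 bases after the start site. Adm held the motif at 90 and 54 bases before its start site, and Ramp3 at 219 and 65 bases before its own. The Calcrl promoter held 1 match, 21 bases after the start site, and the Ramp1 promoter held 0. No promoter sequence was at hand for Ramp2, so its promoter was not searched. Of 32851 mouse promoters of the same length, 43.8% held at least 1 match and 20.6% held 2 or more, so 2 matches are common.

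Ramp2 was the member with the most UMIs in RPE-like cells of either library, and its level was lower in NaIO3. It lies on chromosome 11 at chr11:101246028-101259546 on the + strand (GRCm38, GENCODE M21), as a protein-coding gene with 8 annotated transcripts. In RPE-like cells it had 3354 UMIs in NaIO3, or 121 CPM (117 to 126), and 15389 UMIs in PBS, or 366 CPM (361 to 372). The ratio of NaIO3 to PBS was 0.332 (0.319 to 0.344), a log2 ratio of -1.59. Ramp2 was the gene with rank 1047 by level in NaIO3 RPE-like cells and rank 322 in PBS RPE-like cells. Of 14211 genes with at least 20 UMIs in RPE-like cells, 2.6% were at least 2-fold lower in NaIO3 and 13.4% at least 2-fold higher. By that fold Ramp2 and Calcrl were lower, Ramp1 and Adm were higher, and Ramp3 passed neither; since the contrast was used to choose the members, nothing is read from these counts. Among all 14211 genes, Ramp2 had rank 109 from the lowest ratio. Among the 526 genes whose UMIs in both libraries together reached the PBS count of Ramp2, it had rank 2 from the lowest. Both ranks by ratio use the contrast by which the members were chosen, so nothing is read from them either.

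In single RPE-like cells, at least 1 Ramp2 UMI was found in 61.1% of NaIO3 cells (median depth 9542 UMIs per cell) and in 89.4% of PBS cells (median depth 11299 UMIs). Cells with 6 or more Ramp2 UMIs were 4.72% in NaIO3 and 31.8% in PBS. After each cell was thinned to 3000 UMIs, cells with no Ramp2 UMI were 71.0% in NaIO3 and 40.1% in PBS, and the mean was 0.364 UMIs per cell in NaIO3 and 1.09 in PBS. The thinning left out 0 NaIO3 cells and 2 PBS cells. In surface epithelium-like cells, a class outside the RPE, the share with a UMI was 16.0% in NaIO3 (median depth 9080 UMIs) and 36.4% in PBS (median depth 12951 UMIs). The RPE-like shares were above these in both libraries.

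**Figure D1:**
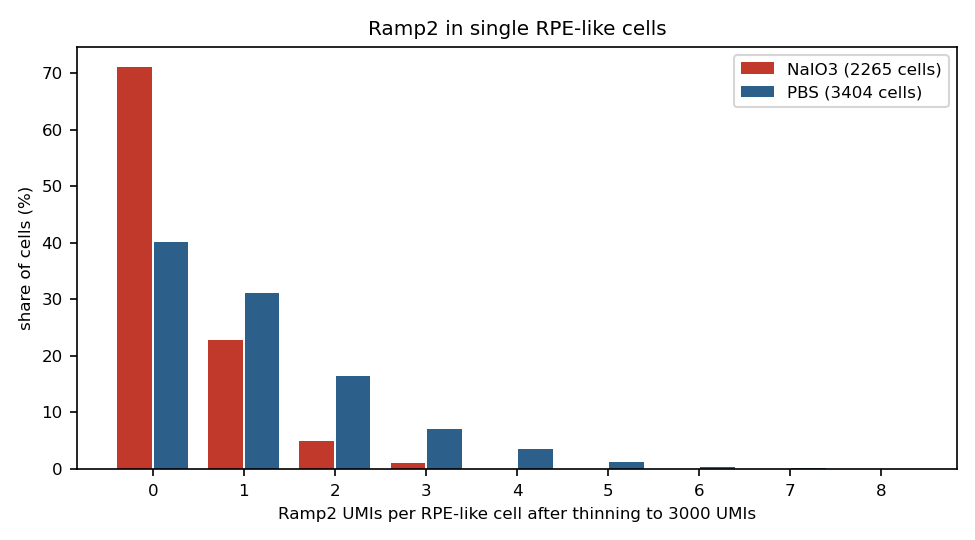
Share of RPE-like cells (y axis, %) with each number of Ramp2 UMIs (x axis) after thinning every cell to 3000 UMIs, NaIO3 in red and PBS in blue. Cells at 0 UMIs are 71.0% in NaIO3 and 40.1% in PBS, and NaIO3 is lower at 1 UMI and above.

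The lower Ramp2 level was found in each kind of RPE-like cell that could be set side by side. In clusters led by melanin genes, Ramp2 had 131 CPM (124 to 138) in NaIO3 and 418 CPM (407 to 430) in PBS, a ratio of 0.313 (0.294 to 0.332). In the remaining RPE-like cells, without the interferon-led and dividing-led NaIO3 clusters, it had 135 CPM (128 to 141) in NaIO3 and 347 CPM (340 to 354) in PBS, a ratio of 0.388 (0.368 to 0.408). In NaIO3 the interferon-led clusters, led by Ifit1 and Rsad2, had 90.3 CPM (75.3 to 107). The 149 NaIO3 cells of cluster 9, led in part by the dividing-cell genes Pbk and Rrm2, had 46.6 CPM (39.1 to 55.1), the lowest Ramp2 level of the RPE-like kinds, and also the lowest summed RPE markers, 11171 CPM. Within bands of mitochondrial share, which differed between the libraries, the ratio ran between 0.208 in cells below 5% and 0.370 in cells of 15 to 25%. Within bands of UMIs per cell it ran between 0.328 and 0.359. In each of these bands the interval lay below 1.

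**Figure D2:**
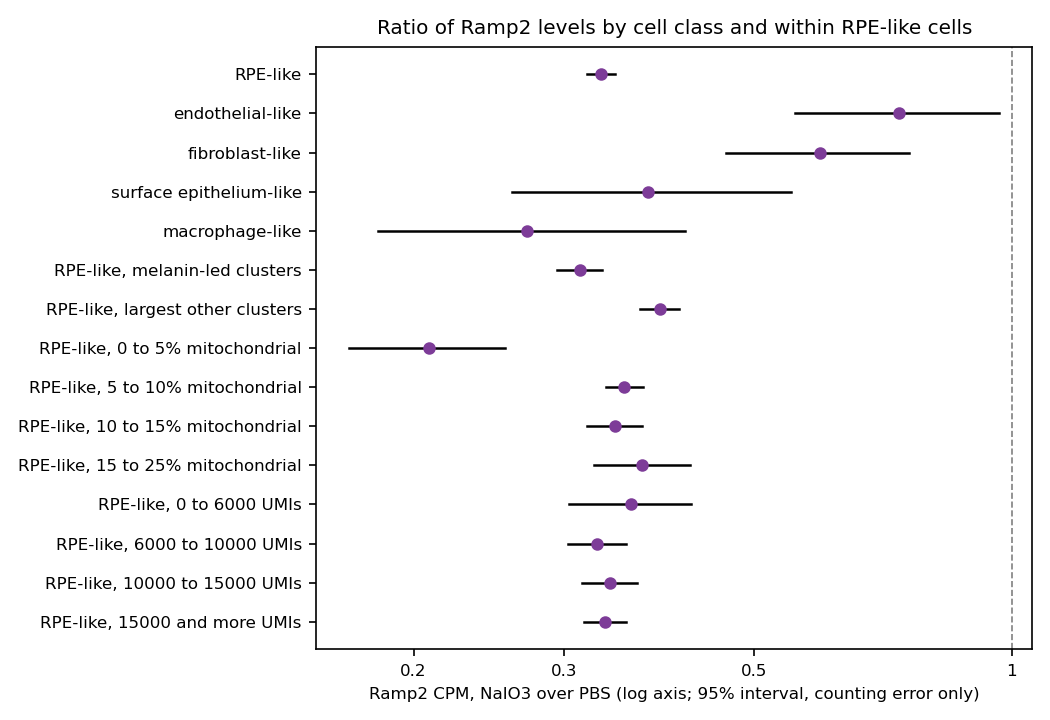
Ratio of the Ramp2 level in NaIO3 to that in PBS (x axis, log scale), with points for the ratio and lines for its 95% counting interval, by cell class and, within RPE-like cells, by cluster kind, mitochondrial share and UMIs per cell. All ratios are below 1, with endothelial-like cells nearest to it at 0.738.

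Outside the RPE, Ramp2 was highest in endothelial-like cells. These had 78 UMIs and 564 CPM (446 to 704) in NaIO3, and 181 UMIs and 764 CPM (657 to 884) in PBS, with a UMI in 13 of 13 NaIO3 cells and 37 of 41 PBS cells. The ratio of NaIO3 to PBS was 0.738 (0.559 to 0.968), from 13 and 41 cells. In the PBS library the endothelial-like level was above that of RPE-like cells by 1.06 on the log2 scale, which was 0.23 with TMM scaling factors and 1.61 without cells holding a lymphatic marker. Fibroblast-like cells came next, with 178 CPM (141 to 222) in NaIO3 and 298 CPM (271 to 327) in PBS, a ratio of 0.597 (0.464 to 0.759). That ratio pooled clusters of different makeup. In cluster 11, led by Dcn and Myoc, Ramp2 had 467 CPM (336 to 631) in 16 NaIO3 cells and 427 CPM (371 to 489) in 117 PBS cells, and these intervals overlap. In cluster 15 it had 70.6 CPM (35.2 to 126) in 11 NaIO3 cells and 246 CPM (184 to 323) in 55 PBS cells. Cluster 17 had 206 CPM (130 to 309) in 10 NaIO3 cells and 339 CPM (287 to 398) in 49 PBS cells. Cluster 18 had 34.5 CPM (7.11 to 101) in 10 NaIO3 cells and 105 CPM (68.4 to 153) in 47 PBS cells. In clusters 17 and 18 the NaIO3 level was lower, with overlapping intervals. The part of cluster makeup in the pooled ratio was not tested.

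In several other classes Ramp2 stood in the same proportion to RPE markers as in RPE-like cells. For each 100 RPE-marker UMIs, RPE-like cells had 0.558 Ramp2 UMIs (0.539 to 0.577) in NaIO3 and 1.47 (1.45 to 1.49) in PBS. Surface epithelium-like cells had 0.628 (0.523 to 0.747) in NaIO3 and 1.31 (0.927 to 1.79) in PBS. Bipolar-like cells, named for an interneuron class of the retina, had 0.528 (0.228 to 1.04) in NaIO3 and 1.50 (1.2 to 1.86) in PBS. Their cluster 25 was led by Cartpt, Meg3 and Sst. RPE markers summed to 12747 CPM in NaIO3 and 19426 CPM in PBS bipolar-like cells, against 21757 and 24917 CPM in RPE-like cells. Macrophage-like cells had 0.743 (0.611 to 0.896) in NaIO3 and 1.71 (1.16 to 2.42) in PBS, and the NaIO3 interval lay above that of RPE-like cells. Fibroblast-like cells had 2.13 (1.68 to 2.66) in NaIO3 and 3.58 (3.25 to 3.93) in PBS, and endothelial-like cells 13.3 (10.4 to 16.9) in NaIO3 and 20.9 (17.7 to 24.6) in PBS. The proportion was thus above that of RPE-like cells in endothelial-like and fibroblast-like cells of both libraries. In surface epithelium-like cells the Ramp2 level was 16.0 CPM in NaIO3 and 42.5 CPM in PBS, and the part of RPE RNA in it was not tested.

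Reads of Ramp2 may not be told apart fully from those of Vps25, a gene of endosomal sorting whose annotated transcripts touch Ramp2 exons on the same strand. Vps25 had 307 UMIs and 11.1 CPM in NaIO3 RPE-like cells and 281 UMIs and 6.69 CPM in PBS RPE-like cells, a ratio of 1.66 (1.41 to 1.96), so its UMIs did not follow those of Ramp2. The members' own transcripts shared no run longer than 14 bases with each other.

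**Figure D3:**
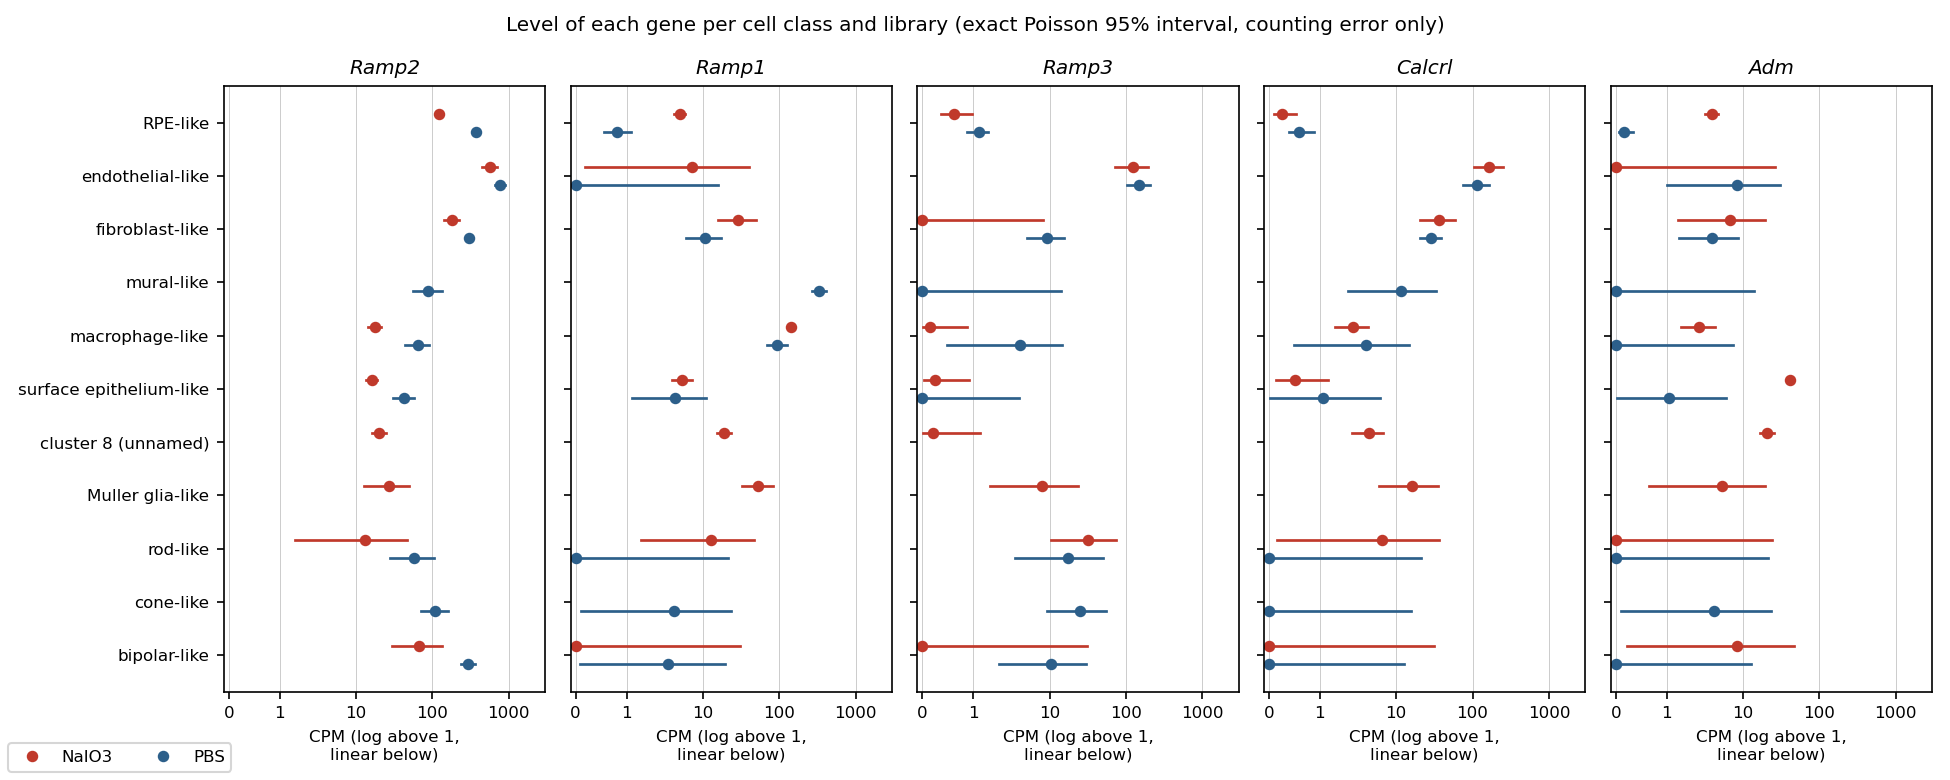
Level of each gene (x axis, CPM, linear below 1 and log above) in 11 cell classes (rows), NaIO3 in red above PBS in blue, points for the level and lines for its exact Poisson 95% interval; class and library pairs under 10 cells are left out. Ramp2, Ramp3 and Calcrl are highest in endothelial-like cells of both libraries, Ramp1 in mural-like and macrophage-like cells, and Adm in surface epithelium-like cells of NaIO3.

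Calcrl, which encodes the receptor that carries the RAMPs, had its highest level in endothelial-like cells of both libraries, with fibroblast-like cells next. It lies at chr2:84330626-84425411 on the - strand, with 3 annotated transcripts. In endothelial-like cells it had 23 UMIs and 166 CPM (105 to 250) in NaIO3, and 27 UMIs and 114 CPM (75.1 to 166) in PBS, a ratio of 1.46 (0.80 to 2.64) whose interval holds 1. In fibroblast-like cells it had 16 UMIs and 36.0 CPM (20.6 to 58.4) in NaIO3, and 43 UMIs and 28.6 CPM (20.7 to 38.5) in PBS, a ratio of 1.26 (0.662 to 2.28). Neither class differed between the libraries beyond counting error. The fibroblast-like level went with a higher proportion to endothelial markers, 37.2 Calcrl UMIs per 100 endothelial-marker UMIs in NaIO3 and 18.1 in PBS, against 3.31 in NaIO3 and 1.86 in PBS endothelial-like cells themselves. In unnamed cluster 8, found in NaIO3 and led by Fbln2, Tagln, Col1a1 and the cell-cycle inhibitor Cdkn2a, Calcrl had 20 UMIs and 4.36 CPM (2.66 to 6.73). Muller glia-like cells of NaIO3 had 6 UMIs and 16.0 CPM (5.86 to 34.8), which overlaps the fibroblast-like interval. Of the 96 Calcrl UMIs in NaIO3, endothelial-like cells held 24.0%, cluster 8 20.8%, macrophage-like cells 17.7% and fibroblast-like cells 16.7%. Of the 101 in PBS, fibroblast-like cells held 42.6%, endothelial-like cells 26.7% and RPE-like cells 24.8%.

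RPE-like cells held very little Calcrl. There were 7 UMIs in 7 of 2265 NaIO3 cells, 0.253 CPM (0.102 to 0.522), and 25 UMIs in 25 of 3406 PBS cells, 0.595 CPM (0.385 to 0.878). The ratio was 0.426 (0.156 to 1.01), and its interval holds 1. In the PBS library Calcrl was higher in endothelial-like than in RPE-like cells by 7.58 on the log2 scale (6.75 with TMM scaling factors), whereas Ramp2 differed between these classes by 1.06. For each 100 endothelial-marker UMIs, RPE-like cells had 1.2 Calcrl UMIs (0.481 to 2.49) in NaIO3 and 2.65 (1.71 to 3.94) in PBS, and endothelial-like cells 3.31 (2.09 to 5.01) in NaIO3 and 1.86 (1.22 to 2.72) in PBS. The intervals of both classes overlap in each library, and the part of endothelial RNA in the Calcrl of RPE-like cells was not tested. The 25 PBS RPE-like cells with Calcrl all had a Ramp2 UMI as well, as had 4 of the 7 NaIO3 cells.

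Calcrl and Ramp2 were found together in endothelial-like cells. Of endothelial-like cells with a Calcrl UMI, 9 of 9 in NaIO3 and 17 of 19 in PBS had Ramp2. Ramp3 was found in 6 of these 9 NaIO3 cells and 9 of the 19 PBS cells, and Ramp1 in 1 of these NaIO3 cells and 0 of the PBS cells. Ramp2 was as common in PBS endothelial-like cells without a Calcrl UMI, 20 of 22. Of fibroblast-like cells with Calcrl, 8 of 10 in NaIO3 and 26 of 39 in PBS had Ramp2, and Ramp3 was found in 0 of them in either library. Of the 17 NaIO3 macrophage-like cells with Calcrl, 13 had Ramp1, close to the 314 of 460 macrophage-like cells without Calcrl. These are counts of cells of 1 library each and depend on depth.

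The endothelial-like cells included lymphatic cells. At least 1 UMI of a lymphatic marker (Prox1, Flt4, Mmrn1, Ccl21a or Reln) was found in 9 of 13 NaIO3 cells and 20 of 41 PBS cells. In PBS, Ramp2 had 509 CPM (397 to 643) in cells with a lymphatic marker and 1117 CPM (919 to 1345) in cells without, and these intervals do not overlap. Calcrl had 138 CPM (83.2 to 216) with a lymphatic marker and 80.5 CPM (34.7 to 159) without, and Ramp3 138 CPM (83.2 to 216) with and 161 CPM (92.0 to 261) without, which overlap. In NaIO3, Ramp2 had 529 CPM (401 to 686) in the 9 cells with a lymphatic marker and 688 CPM (426 to 1051) in the 4 without. The part of this makeup in the endothelial ratio of Ramp2 between the libraries was not tested.

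Ramp3, the other partner that makes an adrenomedullin receptor, had its highest level in endothelial-like cells of both libraries. It lies at chr11:6658521-6677475 on the + strand, and its 2 transcripts overlap a pseudogene on the other strand. In endothelial-like cells it had 17 UMIs and 123 CPM (71.6 to 197) in NaIO3, and 35 UMIs and 148 CPM (103 to 206) in PBS, a ratio of 0.832 (0.437 to 1.53). In the PBS library it was higher in endothelial-like than in RPE-like cells by 6.96 on the log2 scale (6.12 with TMM scaling factors). RPE-like cells had 17 UMIs and 0.616 CPM (0.359 to 0.986) in NaIO3, and 50 UMIs and 1.19 CPM (0.883 to 1.57) in PBS, a ratio of 0.517 (0.280 to 0.912). When RPE-like cells were instead picked by counting markers, which kept 30 NaIO3 cells, the log2 ratio turned to 2.87. Endothelial-like cells held 28.8% of the Ramp3 UMIs in NaIO3 and 30.2% in PBS, and the far more numerous RPE-like cells 28.8% and 43.1%.

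Low Ramp3 counts were also found in photoreceptor-like cells. Rod-like cells had 5 UMIs in 5 of 18 NaIO3 cells and 3 UMIs in 3 of 37 PBS cells, and cone-like cells 6 UMIs in 6 of 41 PBS cells, or 25.2 CPM (9.24 to 54.8). In RPE-like cells the proportion of Ramp3 to rod markers was 0.218 per 100 marker UMIs (0.127 to 0.350) in NaIO3 and 0.157 (0.117 to 0.207) in PBS, above the 0.0560 (0.0182 to 0.131) of NaIO3 and the 0.0282 (0.00582 to 0.0826) of PBS rod-like cells, though the NaIO3 intervals overlap at their ends. The proportion to endothelial markers in RPE-like cells was 2.92 (1.69 to 4.72) in NaIO3 and 5.30 (3.91 to 7.05) in PBS, against 2.45 (1.42 to 3.95) in NaIO3 and 2.42 (1.68 to 3.38) in PBS endothelial-like cells. The intervals of RPE-like and endothelial-like cells overlap in NaIO3 and do not in PBS, where RPE-like cells had more Ramp3 for their endothelial markers. Of the 50 PBS UMIs, 13 came from the 269 cells of cluster 6, at 4.06 CPM (2.16 to 6.94), against 1.02 CPM (0.680 to 1.48) in cluster 0 and 0.790 CPM (0.361 to 1.50) in cluster 2. The rod markers summed to 2291 CPM in cluster 6, 628 CPM in cluster 0 and 638 CPM in cluster 2, and their part in the Ramp3 of RPE-like cells was not tested. In unnamed cluster 14, led by MHC class II genes, 12 Ramp3 UMIs in NaIO3 came from 2 cells. The NaIO3 levels of cluster 14, 67.2 CPM (34.7 to 117), and of rod-like cells, 32.2 CPM (10.5 to 75.2), have intervals that overlap that of endothelial-like cells.

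Ramp1, the partner of the receptor for calcitonin gene-related peptide, was highest in mural-like cells of PBS and in macrophage-like cells of NaIO3. It lies at chr1:91179822-91225196 on the + strand, with 3 annotated transcripts. In 68 PBS mural-like cells it had 87 UMIs and 332 CPM (266 to 410), and it was found in 41 of them. The 2 NaIO3 mural-like cells had 1 UMI, too few for a level. Both PBS mural-like clusters held it, at 373 CPM (291 to 472) in cluster 21 and 228 CPM (133 to 365) in cluster 33. In macrophage-like cells it had 911 UMIs and 144 CPM (135 to 154) in NaIO3, and 47 UMIs and 95 CPM (69.8 to 126) in PBS, a ratio of 1.52 (1.13 to 2.08). Clusters 5 and 7 held most NaIO3 macrophage-like cells and cluster 13, led by Cd74 and other MHC class II genes, most PBS ones. Within cluster 5 Ramp1 had 187 CPM (173 to 202) in NaIO3 and 138 CPM (71.2 to 241) in PBS, and within cluster 13 it had 125 CPM (70.1 to 207) in NaIO3 and 90.1 CPM (62.4 to 126) in PBS. In both clusters the intervals overlap. Unnamed cluster 14 had 84.0 CPM (47.0 to 139) in NaIO3, overlapping the macrophage-like level, and 44.6 CPM (26.4 to 70.5) in PBS. Muller glia-like cells, support cells of the retina, had 20 UMIs in 10 of 45 NaIO3 cells, 53.3 CPM (32.5 to 82.2).

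In RPE-like cells Ramp1 went with the macrophage markers. It had 138 UMIs and 5.0 CPM (4.20 to 5.90) in NaIO3, and 34 UMIs and 0.809 CPM (0.560 to 1.13) in PBS. The ratio was 6.18 (4.22 to 9.27), or 2.63 on the log2 scale. That log2 ratio was 1.84 with cells picked by counting markers, which kept 30 NaIO3 cells, and 4.36 with thinned cells. The thinned value comes from a random draw that left few PBS UMIs. Another draw found Ramp1 in 46 of 2265 NaIO3 and 9 of 3404 PBS cells. The 9 macrophage markers were all detected in the RPE-like cells of both libraries and summed to 778 CPM in NaIO3 and 170 CPM in PBS. For each 100 macrophage-marker UMIs there were 0.642 Ramp1 UMIs (0.539 to 0.760) in NaIO3 RPE-like cells, against 0.737 (0.690 to 0.787) in NaIO3 macrophage-like cells. In PBS there were 0.477 (0.330 to 0.667) in RPE-like cells and 0.455 (0.334 to 0.605) in macrophage-like cells. Within each library these intervals overlap. The part of macrophage RNA in the Ramp1 of RPE-like cells was not tested. Of the 1234 Ramp1 UMIs in the NaIO3 library, 73.8% were in macrophage-like cells, and of the 209 in the PBS library, 41.6% were in mural-like cells and 22.5% in macrophage-like cells.

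Adm, the gene of the ligand, was rare in PBS and found in several NaIO3 classes. It lies at chr7:110627661-110629820 on the + strand with 2 annotated transcripts, and its antisense gene Gm28863 had 0 UMIs in RPE-like cells. The whole NaIO3 library had 577 Adm UMIs, or 11.9 CPM, and the PBS library 18, or 0.38 CPM. In surface epithelium-like cells there were 328 UMIs in 143 of 689 NaIO3 cells, 41.3 CPM (36.9 to 46.0), and 1 UMI in 66 PBS cells, 1.09 CPM (0.0276 to 6.07). The ratio was 37.9 (6.75 to 1500.3) and rests on that 1 UMI. All 3 surface epithelium-like clusters held Adm in NaIO3, at 47.1 CPM (41.5 to 53.3) in cluster 4, 34.3 CPM (25.1 to 45.7) in cluster 10 and 23.9 CPM (16.1 to 34.2) in cluster 12. Unnamed cluster 8 had 95 UMIs in 58 of its 168 NaIO3 cells, 20.7 CPM (16.7 to 25.3).

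RPE-like cells had 108 Adm UMIs in 79 NaIO3 cells, 3.91 CPM (3.21 to 4.72), and 7 UMIs in 7 PBS cells, 0.167 CPM (0.0670 to 0.343), a ratio of 23.5 (11.0 to 59.8) or 4.55 on the log2 scale, which was 3.77 without cluster 9, 5.09 without the melanin-led clusters 1 and 2, and 3.66 without all 3 of these clusters. Of these 108 UMIs, 52 came from the 149 cells of cluster 9, which thus had 17.7 CPM (13.2 to 23.2), while cluster 3 had 16 UMIs and 1.29 CPM (0.736 to 2.09). The surface epithelium markers summed to 1768 CPM in NaIO3 RPE-like cells and 238 CPM in PBS RPE-like cells, with all 11 detected in both, and to 1783 CPM in cluster 9 and 1578 CPM in cluster 3. For each 100 of these marker UMIs, Adm had 0.992 UMIs (0.740 to 1.3) in cluster 9, 0.154 (0.106 to 0.216) in the melanin-led cluster 1 and 0.0816 (0.0466 to 0.132) in cluster 3, against 0.0722 (0.0646 to 0.0805) in surface epithelium-like cells. The interval of cluster 3 overlaps that of surface epithelium-like cells, and the intervals of clusters 1 and 9 lie above it. NaIO3 macrophage-like cells had 0.181 (0.105 to 0.290), which also lies above surface epithelium-like cells and overlaps the interval of cluster 1. The part of RNA from other classes, such as cluster 8, in the Adm of RPE-like cells was not tested.

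**Figure D4:**
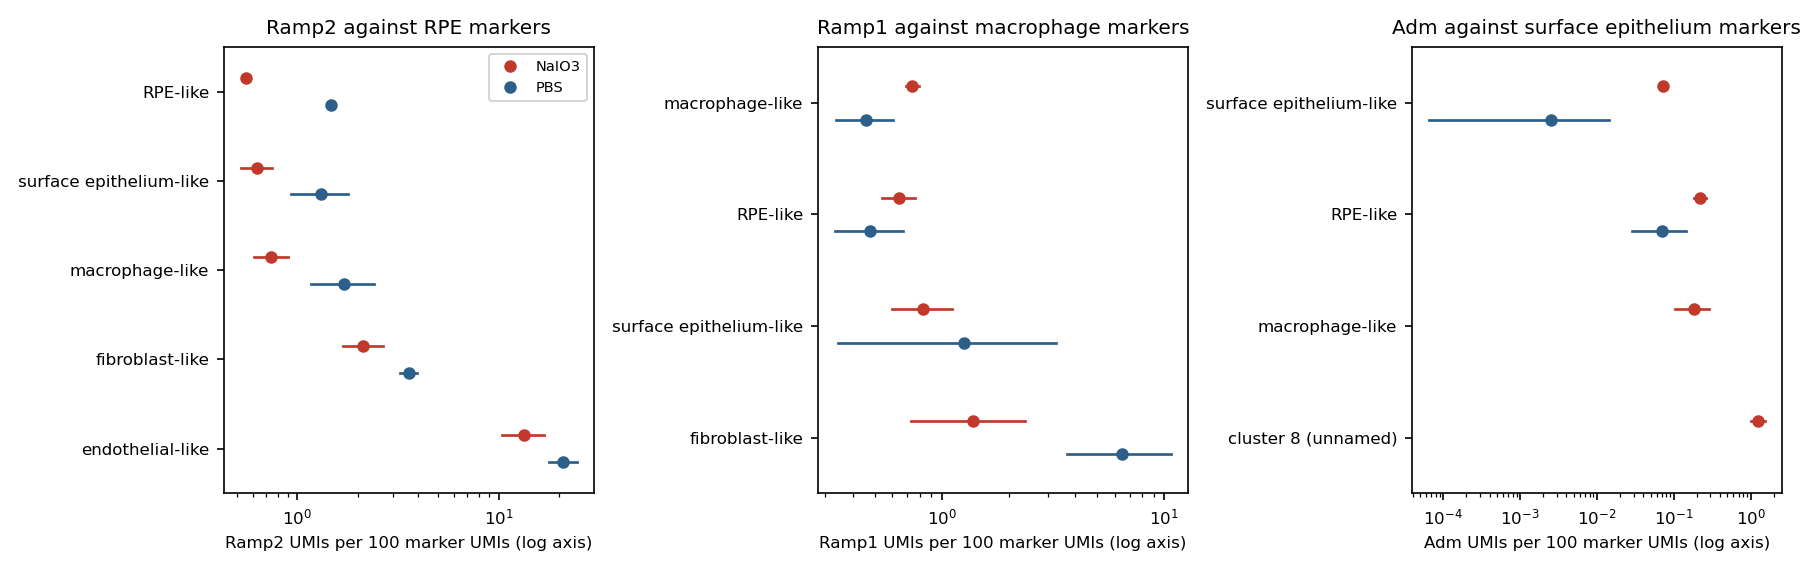
UMIs of a gene for each 100 UMIs of a class's markers (x axis, log scale) by cell class, NaIO3 in red above PBS in blue, with 95% counting intervals; pairs with 0 UMIs of the gene are left out. The intervals of Ramp1 in RPE-like and macrophage-like cells overlap within each library. Adm in NaIO3 RPE-like cells, macrophage-like cells and cluster 8 lies above surface epithelium-like cells.

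Other genes that could act with the 5 members were taken from lists by role. Over all 14211 genes the median log2 ratio of NaIO3 to PBS in RPE-like cells was 0.20 and 66.5% of genes were above a ratio of 1, and each list is given beside these. Of 8 further ligands and receptors of the calcitonin family, 2 had at least 20 UMIs in RPE-like cells. These were Crcp, which encodes a component of the receptor for calcitonin gene-related peptide, at 13.8 CPM in NaIO3 and 11.8 CPM in PBS (ratio 1.17, 1.02 to 1.34), and Ackr3, a scavenging receptor that also takes up adrenomedullin, at 38.5 CPM in NaIO3 and 29.7 CPM in PBS (ratio 1.29, 1.19 to 1.41). Calcr, Calca, Calcb, Iapp and Adm2 had between 0 and 2 UMIs in RPE-like cells of either library.

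RPE-like cells also expressed other receptors able to pair with a RAMP. Of 13 such genes 4 were measured, 1 of them above a ratio of 1. Vipr2, a receptor for vasoactive intestinal peptide, had 15.5 CPM in NaIO3 and 18.2 CPM in PBS, a ratio of 0.854 (0.757 to 0.963). Crhr2, a receptor for urocortins, had 15.2 CPM in NaIO3 and 11.7 CPM in PBS, a ratio of 1.3 (1.14 to 1.48). Neither moved by as much as Ramp2. Vipr1 and Adgrf5 had 9 and 7 UMIs in NaIO3 and 16 and 14 UMIs in PBS. Adgrf5, an adhesion receptor, was high in endothelial-like cells, with 260 CPM in NaIO3 and 308 CPM in PBS.

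Among 9 genes that process, bind or break down the peptide, 6 were measured in RPE-like cells and all 6 were above a ratio of 1, with a median log2 ratio of 0.26. Pam, which adds the amide that makes adrenomedullin active, had 11.3 CPM in NaIO3 and 6.38 CPM in PBS, a ratio of 1.77 (1.50 to 2.09), though its level in another class was over 10-fold higher. Furin, a propeptide-cutting protease, had 49.5 CPM in NaIO3 and 37.0 CPM in PBS, a ratio of 1.34 (1.24 to 1.44). Cpe, a carboxypeptidase, had 462 CPM in NaIO3 and 459 CPM in PBS, a ratio of 1.01 (0.984 to 1.03).

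Of 30 genes of cyclic AMP signalling, 27 were measured, 20 were above a ratio of 1, 0 were 2-fold lower and 4 were 2-fold higher, with a median log2 ratio of 0.22. Over all 14211 genes, 2.6% were at least 2-fold lower and 13.4% at least 2-fold higher. Gnas, the stimulatory G protein, had 504 CPM in NaIO3 and 474 CPM in PBS, a ratio of 1.07 (1.04 to 1.09). Adcy6, an adenylyl cyclase, had 14.0 CPM in NaIO3 and 7.33 CPM in PBS, a ratio of 1.92 (1.65 to 2.23). Arrb2, a beta-arrestin, had 6.08 CPM in NaIO3 and 2.21 CPM in PBS, a ratio of 2.75 (2.12 to 3.58), with over 10-fold more in another class. Pde4b, a phosphodiesterase that breaks down cyclic AMP, had 24.4 CPM in NaIO3 and 33.0 CPM in PBS, a ratio of 0.741 (0.675 to 0.814). Besides Arrb2, the genes at least 2-fold higher were Adcy2, Pde3b and Adcy7, which had over 10-fold more in another class and few UMIs here, with 29, 32 and 38 in NaIO3 and 4, 5 and 15 in PBS, and with ratios of 11.0 (3.87 to 43.2), 9.74 (3.77 to 32.0) and 3.85 (2.07 to 7.54). Among genes with at least 100 UMIs in a library, the others at the ends of this list were Akap12, an anchor of protein kinase A, with a ratio of 1.74 (1.43 to 2.11), Adcy9, another cyclase, with 0.797 (0.596 to 1.06), and Pde4d with 0.967 (0.792 to 1.18). Akap12 too had over 10-fold more in another class.

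The hypoxia-induced genes were listed because Adm is a known member of that response. Of 21 such genes all 21 were measured in RPE-like cells and 16 were above a ratio of 1, with a median log2 ratio of 0.18, below the 0.20 of all genes. In this list 0 genes were at least 2-fold lower and 3 at least 2-fold higher, namely Pfkfb3, Egln3 and Ndrg1. Pfkfb3 had 79 UMIs and 2.86 CPM in NaIO3 and 10 UMIs and 0.238 CPM in PBS, a ratio of 12.02 (6.20 to 26.03). Its highest level in another class, 22.2 CPM, was not over 10-fold above its NaIO3 level. Egln3, a prolyl hydroxylase, had 5.25 CPM in NaIO3 and 0.666 CPM in PBS, a ratio of 7.88 (5.23 to 12.3), with over 10-fold more in another class. Ndrg1 had 8.11 CPM in NaIO3 and 3.43 CPM in PBS, a ratio of 2.37 (1.91 to 2.94), likewise with over 10-fold more elsewhere. Vegfa, the vascular growth factor that RPE sends to the choroid, had 186 CPM in NaIO3 and 168 CPM in PBS, a ratio of 1.10 (1.06 to 1.14). The glycolytic gene Eno1 had 468 CPM in NaIO3 and 558 CPM in PBS, a ratio of 0.840 (0.822 to 0.858). Hk2, a hexokinase, had a ratio of 1.69 (1.41 to 2.04), also with over 10-fold more in another class. The mitochondrial genes Higd1a and Bnip3 had ratios of 0.845 (0.819 to 0.871) and 0.875 (0.789 to 0.970). The 9 melanin genes, which mark pigment cells, were all above a ratio of 1 with a median log2 ratio of 0.56, so Ramp2 did not move with them. Tyrp1, Pmel and Mlana had the highest of these ratios, 1.67, 1.64 and 1.54, and Dct, Tyr and Gpr143 the lowest, 1.04, 1.14 and 1.15.

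Across 21 class and library groups of at least 20 cells, the genes whose level on the log2(CPM + 1) scale was most like that of Ramp2 among 9898 genes included Stox1 (Pearson r 0.84), Ing2 (0.82), Slco1a4 (0.82) and Tgfbr3 (0.80). The groups share libraries and depth, so these are descriptions. Of these genes Tgfbr3 was not lower in NaIO3 RPE-like cells, at 75.2 CPM in NaIO3 and 71.3 CPM in PBS, while Ing2 had 43.7 CPM in NaIO3 and 79.4 CPM in PBS. The genes most like Calcrl were Trim47 (0.89), Slc29a1 (0.87), Fcgrt (0.87), Vcam1 (0.86) and Col4a1 (0.86).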

How the data were processed

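Droplet libraries of 6 pooled mice per group were deposited by the authors as raw UMI counts per gene and barcode. Per the submitters' processing notes they came from Cell Ranger 3.0.2 with mm10; annotation release, strand setting and cell calling were not stated there, and empty droplets were not used. The NaIO3 library had 4058 barcodes and 51168520 UMIs (4217 to 76174 per barcode), the PBS library 4618 barcodes and 51055592 UMIs (2979 to 63062). Barcodes were kept from 500 genes upward and up to 25% mitochondrial UMIs, which removed 114 in NaIO3 and 231 in PBS. Scrublet in scanpy 1.11.5 ranked doublets; the highest scores were removed up to 0.8% per 1000 barcodes, 128 in NaIO3 and 162 in PBS, since its automatic threshold marked 9 in NaIO3 and 4 in PBS. Cells were clustered together without integration on 2000 variable genes, leaving out the members and the listed genes other than melanin genes (30 principal components, 15 neighbours with Jaccard weights, leidenalg 0.10.2, resolution 1, seed 1), into 34 clusters.

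A name needed a mean log2 fold of at least 1 over its markers (CPM plus 5, against the median cluster), 3 markers at 2-fold, and that no rival class had more of its markers in the 10 leading genes; outside the RPE, also 1 own marker among those 10, a rule added after seeing the data. Of 149 markers, 146 stood on 1 gene row and were used; both rows of Ccl21a were summed for lymphatic cells. Pigment genes were not used as melanocyte markers, so melanin-led clusters count as RPE-like. UMIs were summed per class and library and given as CPM. Ratios with fewer than 20 UMIs were not computed, except in some of the alternatives, and the lowest detectable level is 3 counts. Intervals are exact and cover counting error only. They were run on simulated Poisson counts with known folds. Those counts held no spread between animals or libraries, so the run checked the computation only. The 5 members are named, with the 5 genes most like Ramp2 and Calcrl (at least 500 UMIs), and list genes with at least 100 UMIs in RPE-like cells of a library among the 3 highest or 3 lowest ratios of their list, or a sole partner or ligand. Vipr1, Gnas, Vegfa and Adgrf5, the cyclic AMP genes Adcy2, Pde3b and Adcy7 and the hypoxia-induced gene Pfkfb3 with fewer UMIs, the calcitonin family genes near 0 and Vps25 were added after their values were seen. One gene that the rule names is not reported here. The members and lists were chosen with earlier results of these data known. Coordinates are those of GENCODE M21, which holds the identifiers of 27645 of 27998 gene rows. Other resolutions, filters, scalings and cell choices were tried as alternatives.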

Additional observations from a re-analysis of the deposited data

How the results depend on the processing

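The log2 ratio of Ramp2 in RPE-like cells, -1.59, stayed between -1.80 and -1.40 over 14 alternatives. It was -1.52 at Leiden resolution 0.5, without doublet removal and with free RNA subtracted, -1.47 with each library clustered alone, -1.50 at a mitochondrial limit of 10%, -1.80 with TMM factors, -1.76 with cells chosen by marker counts, -1.40 in the largest cluster of each library, -1.42 without any cluster with 2 or more melanin genes among its leading genes, the dividing-led cluster 9 included, -1.49 without cluster 9 alone and -1.59 without the melanin-led clusters but with cluster 9, the last 2 chosen after seeing the data. TMM factors shifted all RPE-like ratios by 0.21 and the endothelial-like over RPE-like ratios by 0.83. The Ramp1 ratio, 2.63, was 1.84 with cells chosen by marker counts and could not be had with free RNA subtracted. It was 4.36 with thinned cells, from a random draw that left few PBS UMIs. The Ramp3 ratio, -0.95, turned to 2.87 with cells chosen by marker counts, which kept 30 NaIO3 cells, as 2245 of 2265 NaIO3 and 176 of 3406 PBS RPE-like cells held at least 4 markers of another class. The Adm and Calcrl ratios kept their direction and stayed within their counting intervals in 13 and 9 alternatives. In PBS, the endothelial-like over RPE-like log2 ratio of Ramp2, 1.06, was 1.41 at Leiden resolution 2, 0.23 with TMM factors and 1.61 without lymphatic cells, a choice made after seeing the data. That of Ramp3, 6.96, was 6.12 with TMM factors and 7.83 with free RNA subtracted, and that of Calcrl, 7.58, was 11.46 with free RNA subtracted. The subtracted Calcrl value rests on very few UMIs. In PBS RPE-like cells 26.3% of UMIs were taken as library profile, in which Calcrl had 2.13 CPM. Nearly all of the 25 Calcrl UMIs of these cells were thereby removed. No value was given where a count above 0, or in most settings 20 UMIs, was not reached: Calcrl in RPE-like cells at the 10% limit, with marker counts, with free RNA subtracted and without melanin-led clusters (with or without cluster 9), and Adm with marker counts. The limit of 20 UMIs was not applied to thinned cells, to the mean over cells or to subtracted free RNA. The thinned Calcrl ratio, -0.997, rests on few UMIs, as another draw found Calcrl in 3 NaIO3 and 11 PBS cells. No paired analysis was possible because each group has 1 library. One library per group, few endothelial-like cells and low counts of Calcrl and Ramp3 in RPE-like cells limit what can be read.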
